A study of Drosophila melanogaster with 36 samples.

Results

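Aminoacyl-tRNA synthetases were examined in RNA-Seq data of Drosophila S3 cells, an embryonic cell line. The genes were chosen by name alone, as all rows of the counts whose FlyBase symbol is a three-letter amino acid code plus RS, with or without -m, or begins with Aats- in the older naming. This gave 33 genes of 17142 rows, 18 coding for cytosolic and 15 for mitochondrial enzymes. The compartment was read from the name alone, as mitochondrial with -m and as cytosolic without it. The current names found 32 of them. GluProRS (Aats-glupro) was found by the older name only. LeuRS and PheRS-m were listed under older gene IDs.

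RNA was measured in 36 samples in 10 groups after 4 h. Active CT1 (THI-4), active CT2 (TPE-69) and active CT3 (AU-6) were OA-fed cells with 1 µM of a derivative that blocks lipid storage. Inactive CT1 (THI-68), inactive CT2 (TPE-67) and inactive CT3 (AU-73) were OA-fed cells with 1 µM of a derivative of the same core that does not. The cores are tetrahydroindazole (CT1), thienopyrrole (CT2) and arylureido (CT3). Their control was vehicle OA (0.1% DMSO and 200 µM oleic acid, OA), itself compared with vehicle noOA (0.1% DMSO). Each of these 8 groups had 3 libraries and the same DMSO content. Cells without DMSO were grown with 200 µM OA (OA, 6 libraries) or without it (noOA, 6 libraries). All groups came from 1 cell line in medium with serum, and nothing in the labels says whether the samples of a group were separate cultures, so the p-values measure the spread between these samples.

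Each synthetase joins 1 amino acid to its transfer RNAs, and thereby supplies the ribosome with charged tRNAs. Animal cells make proteins in the cytosol and in the mitochondrion. The mitochondrial enzymes are mostly coded by nuclear genes of their own. A cytosolic enzyme can also serve both places, as glycyl- and lysyl-tRNA synthetase do in humans. The enzymes fall into class I and class II, which differ in the fold of the catalytic domain. Uncharged tRNA is sensed by the kinase Gcn2, which acts through the transcription factor ATF4 (crc in flies). In mammals ATF4 raises the transcripts of many synthetases.

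The libraries held between 1208200 and 9548314 counts, and 18S rRNA took 34.7% to 51.5% of them. The 33 synthetase genes together had 2391 to 20442 counts per library, which was 0.157% to 0.224% of all counts. Levels are given as CPM (counts scaled to the normalised library size) when 1 gene is compared between groups, and per transcript length (FPKM, or CPM per kilobase of exon) when genes are compared with each other. CPM is a share of the RNA in a library, so a change in all RNA of a cell cannot be seen, and fewer cells of a type cannot be told apart from less RNA per cell. Of the markers of blood cells (hemocytes), Pxn had a median of 609 FPKM and srp of 135 FPKM. NimC1 was near 0 at 0.113 FPKM, and the median of the fat body markers Lsp2 and Fbp1 was 0. The vehicle noOA and vehicle OA groups each enter the tests with 2 libraries, since the study dropped 1 library of each. All 33 synthetase genes passed the filter on low counts in both fits.

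All 33 genes were transcribed in these cells, and the cytosolic enzymes stood above the mitochondrial ones. The median FPKM of the cytosolic genes was 35.2 (range over genes 17.7 to 66.8), against 8.96 (2.11 to 27.97) for the mitochondrial genes. Summed CPM was 1556 to 1755 per library for the cytosolic genes and 261 to 304 for the mitochondrial genes. In no library did the sums come near each other, and the cytosolic sum was 5.12 to 6.26 times the mitochondrial one.

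Of the cytosolic genes, AlaRS, the alanyl enzyme, had the highest FPKM (median 66.8, lowest 20.2 and highest 82.99 over 36 libraries). ThrRS, the threonyl enzyme, came next at 64.4 FPKM (19.8 to 76.5). The lowest were LeuRS, the leucyl enzyme, at 21.8 FPKM (7.62 to 27.7) and AspRS, the aspartyl enzyme, at 17.7 FPKM (5.59 to 25.4). The low ends came from the 3 libraries with the fewest counts, where the FPKM of synthetases relative to their CPM was lower than in the median library by between 1.07 and 1.80 on the log2 scale. In the other 33 libraries this ratio stayed between -0.26 and 0.23.

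Of the mitochondrial genes, AspRS-m had the highest FPKM, at 27.97 (10.8 to 34.8). TrpRS-m, the tryptophanyl enzyme, followed at 14.5 FPKM (3.86 to 17.4). The lowest were AsnRS-m, the asparaginyl enzyme, at 4.14 FPKM (2.24 to 5.68), and ValRS-m, the valyl enzyme, at 2.11 FPKM (0.786 to 3.52). AspRS-m thus lay among the cytosolic genes in level.

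The level of AspRS depended on the measure. Per kilobase of exon, taken from the current Drosophila annotation, AspRS was the highest of the cytosolic genes with 62.3 CPM, although it was the lowest by FPKM. Relative to the other synthetases its FPKM was 4.62-fold below its CPM per kilobase. For the remaining 32 genes the log2 ratio of both measures lay between -0.40 (ValRS) and 0.92 (MetRS-m). In that annotation AspRS shares 154 of 2266 exon bases with an RNA gene on the same strand, asRNA:CR43468, and 1575 bases with genes on the opposite strand. The part of this overlap in the low FPKM was not tested.

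**Figure D1:**
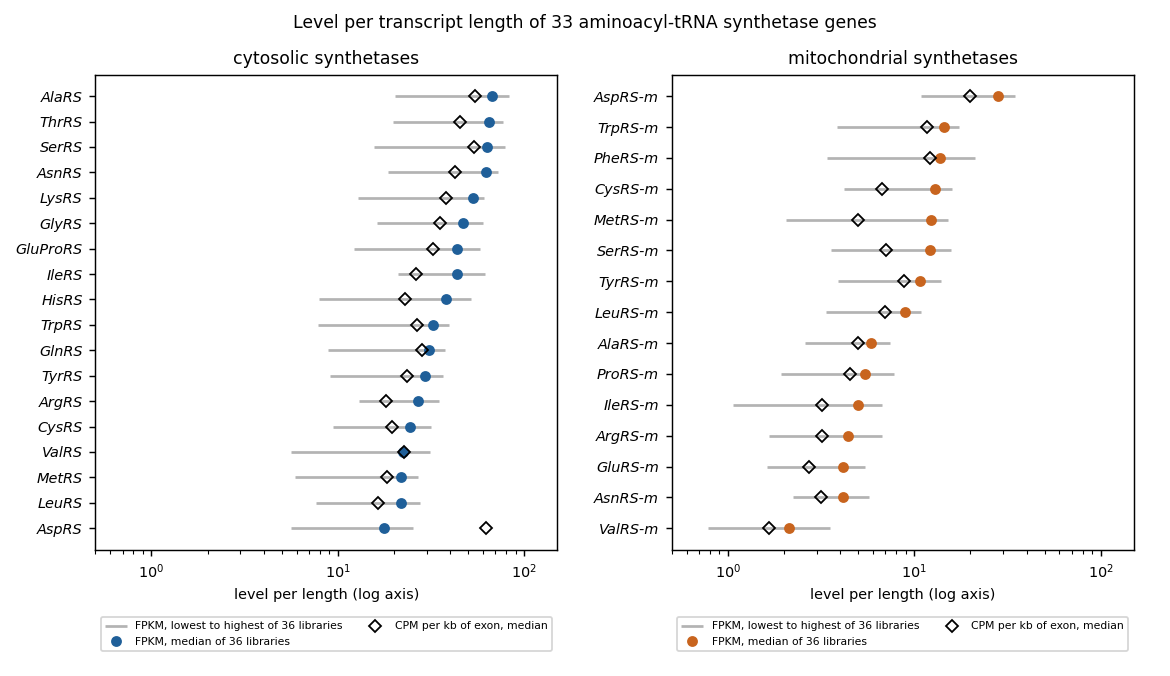
Level per transcript length of the cytosolic (left) and mitochondrial (right) synthetase genes on a log axis. Filled points are the median FPKM and grey lines the lowest to the highest FPKM of 36 libraries. Open diamonds are the median CPM per kilobase of exon, which for AspRS (62.3) stands far from its FPKM (17.7).

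For 12 amino acids both a cytosolic and a mitochondrial enzyme were among the genes. By CPM per kilobase the cytosolic gene was higher in all 36 libraries for each of the 12 amino acids. The median ratio of cytosolic over mitochondrial gene ran from 2.25 for tryptophan to 13.7 for valine. By FPKM the aspartyl pair was reversed, with a median ratio of 0.629 and a ratio under 1 in all 36 libraries. For the other 11 amino acids the FPKM ratio was above 1 in every library, between medians of 1.82 (methionine) and 14.2 (asparagine).

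The levels were then set side by side across the 10 groups. Group means here include the 2 libraries left out of the tests. The ratio of the highest to the lowest group mean had a median of 1.21 for the cytosolic genes (1.10 to 1.33) and 1.42 for the mitochondrial genes (1.15 to 1.78). Without those libraries, a setting chosen after seeing the data, the medians were 1.21 and 1.35, and for 11 of 33 genes another group stood at an end of the range. On the log2 CPM scale the median range of group means was 0.27 for the cytosolic genes, against 0.29 for the 2327 genes within their range of levels, and 0.48 for the mitochondrial genes, against 0.39 for the 5040 genes within theirs. A range over 1 was found for 0 of 18 cytosolic genes, against 2.62% of the genes within their range of levels, and for 0 of 15 mitochondrial genes, against 4.15% within theirs. The cytosolic genes also varied less between libraries of the same group, with a median SD of 0.10 log2 units, against 0.22 for the mitochondrial genes. For all genes within the same ranges of levels the median SD was 0.11 and 0.17.

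The 9 cytosolic enzymes of class I had narrow ranges. ValRS, which charges valine, moved most, with group means between 67.6 CPM in noOA and 89.8 CPM in active CT1. LeuRS ranged between 58.0 CPM in noOA and 75.2 CPM in vehicle OA. Both charge branched-chain amino acids, as does IleRS, whose means lay between 91.4 CPM in inactive CT3 and 109 CPM in OA. MetRS, which charges both initiator and elongator methionine tRNAs, had means of 57.6 CPM in inactive CT3 and 71.2 CPM in inactive CT1 at its ends. ArgRS lay between 33.5 CPM in inactive CT2 and 41.6 CPM in noOA. The glutaminyl enzyme GlnRS lay between 62.5 CPM in active CT1 and 75.4 CPM in noOA. The aromatic amino acids are charged by TrpRS and TyrRS. TrpRS lay between 39.3 CPM in active CT2 and 48.6 CPM in active CT1. TyrRS lay between 38.0 CPM in vehicle OA and 46.1 CPM in vehicle noOA. CysRS, the cysteinyl enzyme, was the steadiest of class I, between 45.1 CPM in inactive CT1 and 51.7 CPM in vehicle noOA.

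The 8 cytosolic enzymes of class II and GluProRS, which carries a glutamyl and a prolyl domain in 1 chain, were similar. HisRS, the histidyl enzyme, had the widest range, between 61.4 CPM in OA and 80.2 CPM in active CT1. SerRS, the seryl enzyme, had the narrowest of all 33 genes, between 99.7 CPM in active CT2 and 109.5 CPM in noOA. GlyRS, the glycyl enzyme, was next, between 87.0 CPM in active CT3 and 97.2 CPM in vehicle OA. AlaRS lay between 168 CPM in inactive CT1 and 204 CPM in active CT1, and ThrRS between 124 and 140.4 CPM in the same groups. The aspartyl and asparaginyl enzymes are close relatives in sequence. AspRS lay between 128 CPM in active CT3 and 148 CPM in vehicle noOA. AsnRS lay between 93.8 CPM in active CT2 and 110.4 CPM in vehicle noOA. LysRS, the lysyl enzyme, lay between 76.9 CPM in active CT1 and 93.2 CPM in inactive CT3, and GluProRS between 155 CPM in vehicle noOA and 192 CPM in active CT1.

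Of the mitochondrial enzymes, with all libraries, AspRS-m (77.9 CPM in inactive CT3 to 90.0 CPM in noOA) and TrpRS-m (27.5 CPM in noOA to 31.5 CPM in vehicle OA) were the steadiest. AsnRS-m and ValRS-m, the lowest by FPKM, had the widest ranges with or without the left-out libraries. AsnRS-m had 3.89 CPM in active CT1 and 6.94 CPM in vehicle OA, and ValRS-m 3.48 CPM in inactive CT1 and 5.96 CPM in noOA. Without the left-out library the AsnRS-m mean of vehicle OA was 6.11 CPM and the ratio of its ends 1.57, below the 1.73 of ValRS-m. TyrRS-m lay between 11.4 CPM in inactive CT1 and 17.2 CPM in inactive CT2. PheRS-m, a single chain where the cytosolic enzyme is made of alpha and beta subunits, lay between 15.6 CPM in noOA and 23.2 CPM in active CT1. Among the remaining class I enzymes, IleRS-m lay between 7.55 CPM in vehicle noOA and 11.1 CPM in OA (without the left-out library its lowest mean was 8.16 CPM, in noOA), ArgRS-m between 7.60 CPM in noOA and 11.0 CPM in active CT3, and GluRS-m between 4.11 CPM in inactive CT3 and 5.95 CPM in inactive CT2. LeuRS-m ran between 20.3 CPM in noOA and 25.3 CPM in vehicle OA, MetRS-m between 19.3 CPM in noOA and 23.6 CPM in active CT2, and CysRS-m between 11.7 CPM in active CT1 and 16.1 CPM in inactive CT2. These 3 genes thus had their highest means in different groups. The last class II enzymes were AlaRS-m (13.8 CPM in inactive CT2 to 19.6 CPM in vehicle noOA), ProRS-m (5.71 CPM in OA to 7.45 CPM in inactive CT1) and SerRS-m (16.5 CPM in vehicle OA to 19.7 CPM in active CT1).

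**Figure D2:**
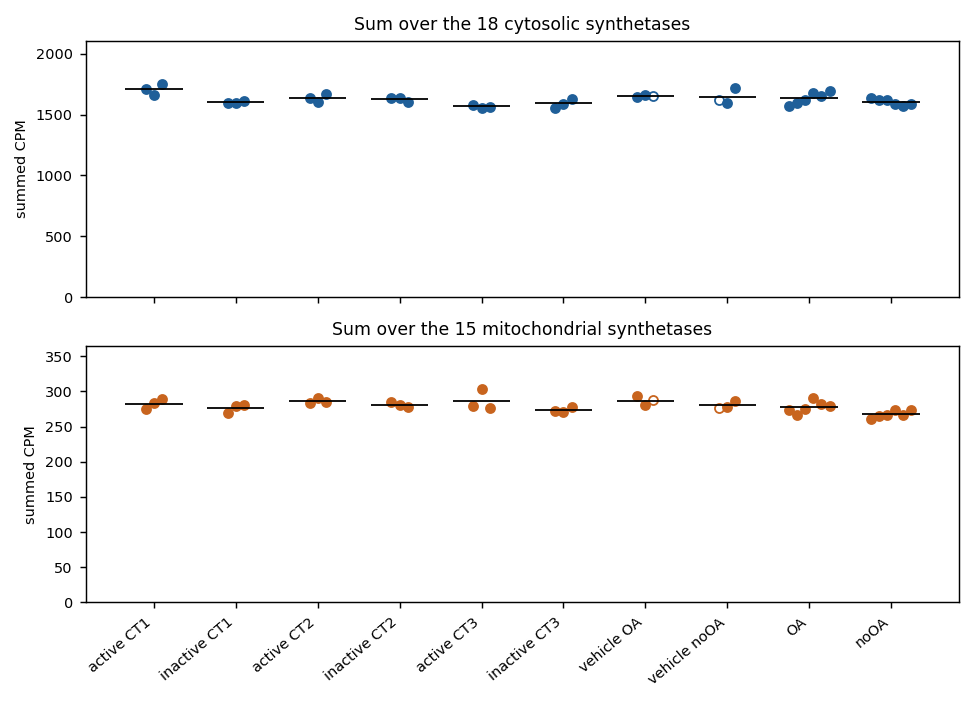
Summed CPM of the 18 cytosolic genes (top) and the 15 mitochondrial genes (bottom). Each point is 1 of 36 libraries, bars are group means, and open points are the 2 libraries left out of the tests. The cytosolic sums lie between 1556 and 1755 and the mitochondrial sums between 261 and 304.

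The cytosolic sum was highest in active CT1, at 1708 ± 47.4 CPM, against 1600.1 ± 10.6 CPM in inactive CT1 and 1652 ± 5.63 CPM in vehicle OA (SD, n = 3 each). The 3 active CT1 libraries, at 1660 CPM and above, lay above the 3 inactive CT1 libraries, at 1612 CPM and below. Active CT3 had the lowest cytosolic sum, 1566 ± 12.0 CPM, against 1591 ± 33.8 CPM in inactive CT3, and these groups overlapped. The mitochondrial sum was 283 ± 7.72 CPM in active CT1, 276 ± 6.38 CPM in inactive CT1 and 287 ± 6.35 CPM in vehicle OA, and those groups overlapped.

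The levels were tested in 16 comparisons between groups, gene by gene with edgeR's quasi-likelihood test, with Benjamini-Hochberg adjustment over all genes, and genes with an adjusted p under 0.05 counted as DE, or called. Of 528 tests of a synthetase, 13 were called, in 5 comparisons and for 10 genes, 9 cytosolic and 1 mitochondrial. The share of all genes called was 4.64% to 13.6% in those 5 comparisons and 0% to 6.45% in the other 11. Among these calls 11 were higher and 2 lower in the first group named, and the largest log2 fold change was 0.40. All calls apart from those in OA against noOA share the same 3 active CT1 libraries, so they are not independent of each other. By limma on log2(FPKM + 1), 2 of the 13 stayed called, HisRS and AlaRS in active CT1 against inactive CT1. The median log2 fold change of the cytosolic genes lay between -0.09 and 0.10 over the 16 comparisons, and that of the mitochondrial genes between -0.06 and 0.13, beside -0.01 to 0.01 for all genes tested. Counts of synthetases at an unadjusted p under 0.05 are given below without the share of all genes at that threshold. No excess over other genes can be read from them.

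**Figure D3:**
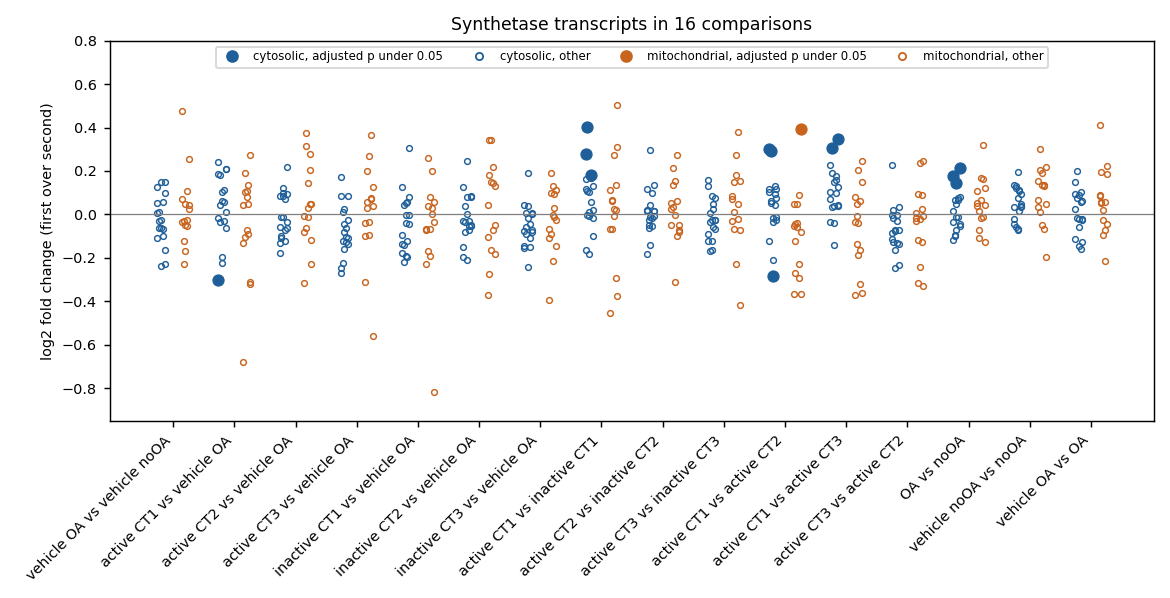
Log2 fold change of each synthetase gene in the 16 comparisons, with the first group over the second. Filled points are called at an adjusted p under 0.05 (edgeR). The 13 calls stay between -0.30 and 0.40, and open points far from 0, such as ValRS-m at -0.82 in inactive CT1 against vehicle OA, belong to genes with few reads.

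OA alone was tested without DMSO, with 6 libraries in each group. Here 3 of 33 synthetase genes were called, beside 13.6% of all genes, and all 3 were higher in OA. Each codes for a cytosolic enzyme, and GluProRS, ValRS and LeuRS charge glutamate and proline, valine, and leucine. The median log2 fold change was 0.00 for the cytosolic genes and 0.04 for the mitochondrial genes.

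ValRS had a lowest, median and highest level of 70.1, 78.6 and 89.3 CPM in OA, against 63.1, 67.1 and 72.5 CPM in noOA. The groups overlapped by a narrow margin. The log2 fold change was 0.21 (SE 0.05, adjusted p = 0.00655, edgeR). LeuRS had 63.8, 66.5 and 68.4 CPM in OA, against 52.0, 57.9 and 63.1 CPM in noOA. Every OA library stood above every noOA library. Its log2 fold change was 0.17 (SE 0.05, adjusted p = 0.0235, edgeR). GluProRS had 177.6, 184 and 192 CPM in OA, against 159.9, 165 and 177.0 CPM in noOA. These groups did not overlap either, by a gap under 1 CPM, and the log2 fold change was 0.14 (SE 0.04, adjusted p = 0.0224, edgeR). Adjusted over the 16 comparisons together, an adjustment chosen after seeing the data, ValRS alone stayed called. LeuRS was not called without OA replicate 2 (adjusted p = 0.0606). GluProRS was not called without any of 4 libraries, noOA replicates 2, 3 and 6 and OA replicate 6 (adjusted p up to 0.0626, edgeR).

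Of 4 tested hemocyte markers, srp and Hml were called higher in OA than in noOA in the same samples, beside 13.6% of all genes. srp had a median of 763 CPM (704 to 780.1) in OA, against 642 CPM (600.1 to 655) in noOA, and Hml 157 CPM (139 to 177) in OA, against 131 CPM (128 to 138) in noOA. Pxn and He were not called, with log2 fold changes of 0.12 and -0.25. The summed CPM of the 5 markers, most of it Pxn, was 3819 to 4193 in OA, against 3466 to 3830 in noOA. NimC1 stood near 0 in both. The summed CPM of 4 neuron markers overlapped, with 35.8 to 49.3 in OA and 38.0 to 47.7 in noOA. The part of these markers in the 3 calls was not tested.

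In DMSO the same comparison, vehicle OA against vehicle noOA, called 0 of 33 synthetase genes, beside 6.45% of all genes, and 2 had an unadjusted p under 0.05 (edgeR). DESeq2 called 0 as well. The log2 fold change of ValRS was 0.15 there (95% confidence interval -0.05 to 0.35). This comparison has 2 libraries in each group. The OA effect with DMSO minus that without DMSO was tested as an interaction, and 0 of 33 genes were called, beside 0% of all genes, with 0 at an unadjusted p under 0.05 (edgeR) and 0 by DESeq2. DMSO itself also gave no call. Vehicle noOA against noOA had 0 of 33 synthetase genes called, beside 0.0133% of all genes, and 1 had an unadjusted p under 0.05. Vehicle OA against OA had 0 of 33 called, beside 0% of all genes, and again 1 had an unadjusted p under 0.05 (edgeR), while DESeq2 called 0 in both.

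Active CT1 changed the most genes of the 3 active derivatives against vehicle OA, yet only GlnRS, 1 of 33 synthetase genes, was called, beside 12.1% of all genes. GlnRS charges glutamine, an amino acid that also feeds the citric acid cycle. Its levels were 59.7, 63.0 and 64.8 CPM in active CT1, against 76.2 and 77.7 CPM in the 2 vehicle OA libraries tested. All active CT1 libraries were lower. The log2 fold change was -0.30 (SE 0.08, adjusted p = 0.00831, edgeR). Vehicle OA replicate 3, left out of the fit, had 67.3 CPM, which is also above the active CT1 libraries. The call was lost without vehicle OA replicate 1 (adjusted p = 0.0867), vehicle OA replicate 2 (0.0829) or active CT1 replicate 2 (0.0503). Against inactive CT1, at 67.8 to 73.7 CPM, GlnRS was not called. OA (58.3 to 80.4 CPM), active CT3 (58.5 to 67.4 CPM) and inactive CT2 (62.8 to 70.8 CPM) overlapped active CT1. So did active CT2 (63.4 to 69.9 CPM) and inactive CT3 (63.7 to 73.0 CPM), while noOA and vehicle noOA lay above.

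With all 3 vehicle OA libraries in the fit, 4 genes were called in active CT1 against vehicle OA. They were GlnRS, AlaRS (log2 fold change 0.21), LysRS (-0.23) and AsnRS-m (-0.76). The 12.1% of all genes belongs to the main fit, so it is no baseline for these 4. At an unadjusted p under 0.05 there were 9 of 33 genes in the main test. Of all genes, at least the 12.1% called there pass that threshold too. The 9 genes included TrpRS, ValRS, MetRS, AlaRS, HisRS and PheRS-m with values above 0 (0.18 to 0.27), and LysRS and AsnRS-m with values below 0. All 18 cytosolic genes had a 95% confidence interval within -0.5 to 0.5, and 9 of 15 mitochondrial genes did. A change of the cytosolic genes by more than 0.5 log2 units thus lay outside the intervals, whereas AsnRS-m, at -0.68, had an interval of -1.23 to -0.13.

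Active CT1 against inactive CT1 compares both derivatives of the tetrahydroindazole core. Of 33 synthetase genes 3 were called, beside 12.7% of all genes, and HisRS, AlaRS and ThrRS were all higher in active CT1. All 3 are class II enzymes with names of the cytosolic set. For histidine and threonine no gene with -m was among the 33, so these 2 enzymes may also serve the mitochondrion. The median log2 fold change of the cytosolic genes was 0.08 and that of the mitochondrial genes 0.03.

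HisRS had 76.2, 77.8 and 86.5 CPM in active CT1, against 56.0, 62.8 and 65.6 CPM in inactive CT1. The groups stood more than 10 CPM apart. The log2 fold change was 0.40 (SE 0.08, adjusted p = 0.000172, edgeR), or 1.32-fold. AlaRS had 197, 205 and 211 CPM in active CT1, against 159.7, 168 and 175 CPM in inactive CT1. These groups did not overlap either, and the log2 fold change was 0.28 (SE 0.06, adjusted p = 0.000787, edgeR). HisRS and AlaRS were called under all 18 alternatives tried, at adjusted p up to 0.0417 for HisRS and up to 0.0471 for AlaRS. ThrRS had 138, 140.1 and 143 CPM in active CT1, against 122, 122.5 and 128 CPM in inactive CT1. Its log2 fold change was 0.18 (SE 0.06, adjusted p = 0.0422, edgeR). That call was lost on leaving out any of the 6 libraries, with adjusted p between 0.0522 and 0.148, and DESeq2 gave it 0.094.

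The active CT1 libraries had 4244841 to 7366000 counts, against 2669008 to 5068426 in inactive CT1, and the groups overlapped in depth. The share of 18S rRNA was 36.05% to 42.5% in active CT1 and 39.1% to 47.8% in inactive CT1. The summed CPM of the 5 hemocyte markers was 3935 to 4601 in active CT1, against 4178 to 4367 in inactive CT1, and none of the 4 tested markers was called. With the rRNA genes left out before scaling, all 3 synthetases stayed called, at adjusted p of 0.00018 for HisRS, 0.000726 for AlaRS and 0.0469 for ThrRS (edgeR). The part of depth in the 3 calls was not tested.

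For HisRS and AlaRS the 2 tested vehicle OA libraries lay between both derivatives of CT1. HisRS had 68.4 and 72.9 CPM and AlaRS 176 and 183 CPM in them. The left-out vehicle OA library had 79.0 CPM of HisRS, within the active CT1 values, and 171 CPM of AlaRS, within the inactive CT1 values. For ThrRS vehicle OA replicate 1, at 139.9 CPM, also lay within the active CT1 values. The log2 fold change of HisRS was 0.18 in active CT1 over vehicle OA (interval 0.01 to 0.36, adjusted p = 0.189) and -0.22 in inactive CT1 over vehicle OA (-0.41 to -0.03, adjusted p = 0.963, edgeR). AlaRS was 0.19 in active CT1 over vehicle OA (0.05 to 0.32, adjusted p = 0.0696) and -0.09 in inactive CT1 over vehicle OA (-0.24 to 0.05, adjusted p = 0.963, edgeR). Neither gene was called against vehicle OA with either derivative. All comparisons with vehicle OA share its 2 libraries.

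In the current annotation HisRS shares 255 of 2862 exon bases with Bx, a gene on the same strand that codes for a LIM-only protein. Bx had a median of 0.942 FPKM, against 38.2 FPKM for HisRS. Its log2 fold change between active and inactive CT1 was 0.84 (adjusted p = 0.169, edgeR). Of the remaining genes, 17 share no exon base with another gene, and those that overlap do so on the opposite strand, apart from AspRS. The counting used the strand of the reads.

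**Figure D4:**
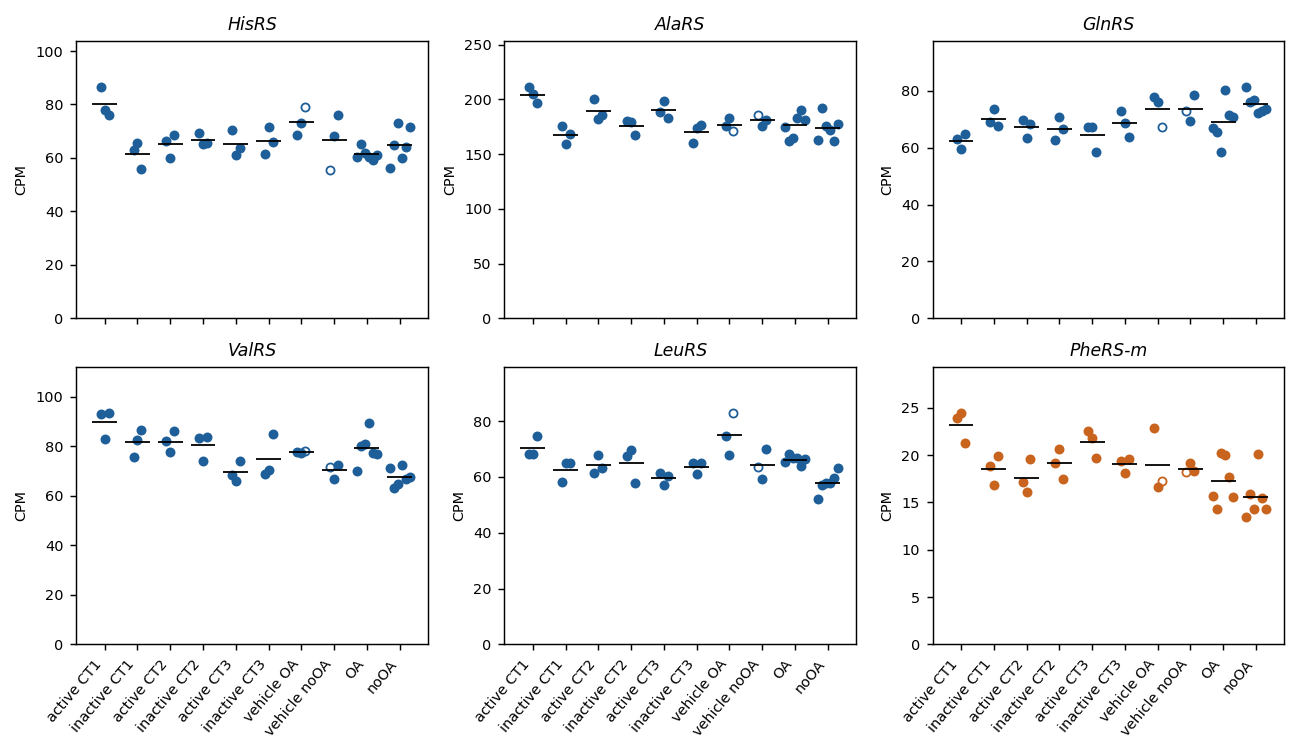
CPM of HisRS, AlaRS, GlnRS, ValRS, LeuRS and PheRS-m by group, with axes from 0. Each point is 1 library, bars are group means over all libraries, and open points are the 2 libraries left out of the tests. HisRS stands at 76.2 CPM or more in active CT1 and at 65.6 CPM or less in inactive CT1.

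For CT2 and CT3 the active derivatives gave no call against vehicle OA in the main test. Active CT2 against vehicle OA had 0 of 33 synthetase genes called, beside 2.03% of all genes, and 2 with an unadjusted p under 0.05. Active CT3 against vehicle OA had 0 of 33 called, beside 4.87% of all genes, and 3 with an unadjusted p under 0.05 (edgeR). DESeq2 called 0 in both. In active CT3 over vehicle OA 5 of 18 cytosolic genes had a positive log2 fold change, with a median of -0.09, and the mitochondrial median was 0.04. GlnRS, with -0.27 (interval -0.44 to -0.10), had the lowest cytosolic value there too. This count of 0 changed with the settings, while the 4.87% of all genes belongs to the main test. AspRS was called lower in active CT3 with RLE factors (log2 fold change -0.23, adjusted p = 0.0494), LeuRS with all mapped libraries (-0.29, adjusted p = 0.0425), and AspRS and GlnRS in a fit of only the groups compared (-0.22 and -0.27, adjusted p = 0.0261 and 0.0389, edgeR). The replicate block also called AspRS (-0.23, adjusted p = 0.0494).

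Against their own inactive derivatives the picture was the same. Active CT2 against inactive CT2 had 0 of 33 genes called, beside 2.49% of all genes, and active CT3 against inactive CT3 had 0 of 33 called, beside 3.68%. In each 3 had an unadjusted p under 0.05 (edgeR), and DESeq2 called 0. In both comparisons all 18 cytosolic genes had a 95% confidence interval within -0.5 to 0.5, against 10 of 15 mitochondrial genes for CT2 and 9 of 15 for CT3.

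The inactive derivatives gave no call against vehicle OA. Inactive CT1 had 0 of 33 genes called, beside 0% of all genes, inactive CT2 had 0 of 33, beside 0.877%, and inactive CT3 had 0 of 33, beside 0.0133%. The numbers with an unadjusted p under 0.05 were 3, 3 and 2 (edgeR), and DESeq2 called 0 in each. ValRS-m with inactive CT1 had the value farthest from 0, -0.82 (interval -1.46 to -0.17), at an unadjusted p of 0.0141.

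The active derivatives were also compared directly. Active CT1 and active CT2 differ in their core, and 4 of 33 synthetase genes were called between them, beside 9.89% of all genes. TrpRS, HisRS and PheRS-m were higher in active CT1 and ArgRS was lower. PheRS-m was the single mitochondrial gene called in any comparison. The cytosolic median was 0.06 and the mitochondrial median -0.06.

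TrpRS had 46.8, 48.9 and 50.2 CPM in active CT1, against 38.3, 39.6 and 40.1 CPM in active CT2. The groups did not overlap, and the log2 fold change was 0.30 (SE 0.08, adjusted p = 0.00773, edgeR). HisRS, with the active CT1 values above, had 60.1, 66.3 and 68.7 CPM in active CT2, a log2 fold change of 0.29 (SE 0.07, adjusted p = 0.00606, edgeR). PheRS-m had 21.2, 23.96 and 24.4 CPM in active CT1, against 16.1, 17.2 and 19.6 CPM in active CT2. Here too the groups were apart, with a log2 fold change of 0.39 (SE 0.11, adjusted p = 0.0185, edgeR). ArgRS had 32.0, 35.0 and 35.2 CPM in active CT1, against 39.7, 42.2 and 42.3 CPM in active CT2. All active CT1 libraries were lower, by 0.28 on the log2 scale (log2 fold change -0.28, SE 0.09, adjusted p = 0.0351, edgeR). The HisRS call was lost without active CT1 replicate 1 (adjusted p = 0.0832) or active CT2 replicate 2 (0.0542). The calls of PheRS-m and ArgRS were each lost without active CT1 replicate 1 or 2 or active CT2 replicate 2. That of PheRS-m was also lost without active CT2 replicate 1, and that of ArgRS without active CT1 replicate 3 or active CT2 replicate 3, at adjusted p up to 0.101 for PheRS-m and 0.137 for ArgRS. DESeq2 called only TrpRS and HisRS of these 4.

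Active CT1 against active CT3 had 2 of 33 genes called, beside 4.64% of all genes, and both were higher in active CT1. ValRS had 83.1, 93.1 and 93.4 CPM in active CT1, against 65.9, 68.4 and 74.0 CPM in active CT3. There was no overlap, and the log2 fold change was 0.35 (SE 0.08, adjusted p = 0.00215, edgeR). HisRS had 61.3, 63.8 and 70.4 CPM in active CT3, all below active CT1, and its log2 fold change was 0.31 (SE 0.08, adjusted p = 0.0093, edgeR). That HisRS call was lost without active CT1 replicate 1 (adjusted p = 0.103), active CT3 replicate 2 (0.0649) or active CT3 replicate 3 (0.0763). In this comparison 15 of 18 cytosolic genes had a positive log2 fold change, with a median of 0.10, against 6 of 15 mitochondrial genes, with a median of -0.04. Active CT3 against active CT2 had 0 of 33 genes called, beside 0.465% of all genes, and 4 with an unadjusted p under 0.05 (edgeR), and DESeq2 called 0. Intervals of the cytosolic genes stayed within -0.5 to 0.5 there, and 9 of 15 mitochondrial ones did.

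The response to the active derivative over its inactive partner was compared between cores. HisRS was called in the interaction of CT1 against CT2, as 1 of 33 genes beside 7.68% of all genes, with a difference of 0.43 (SE 0.11, adjusted p = 0.0106, edgeR). It was also called in CT1 against CT3, as 1 of 33 genes beside 1.56% of all genes, with a difference of 0.44 (SE 0.11, adjusted p = 0.0379, edgeR). Both interactions share the CT1 libraries. The first was lost without active CT1 replicate 1 (adjusted p = 0.0511) or inactive CT1 replicate 3 (0.0755). The second was lost without either of these libraries and without active or inactive CT3 replicate 2 or 3 (adjusted p up to 0.184), and DESeq2 gave it 0.0594. A single fit over 34 libraries gave it 0.0501. CT3 against CT2 had 0 of 33 genes called, beside 0.838% of all genes, with 2 at an unadjusted p under 0.05 (edgeR) and 0 by DESeq2.

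Genes that work with the synthetases were taken from fixed lists. The subunits of cytosolic phenylalanyl-tRNA synthetase, alpha-PheRS and beta-PheRS, had 29.2 and 37.0 FPKM, within the range of the cytosolic enzymes. The scaffold proteins of the multisynthetase complex, AIMP1, AIMP2 and AIMP3, had 31.9, 40.7 and 53.8 FPKM. None of these 5 genes was called in any of the 16 comparisons or 4 interactions (edgeR). Slimp, a mitochondrial relative of seryl-tRNA synthetase in insects that does not charge tRNA, had 8.45 FPKM. It was called lower in OA than in noOA, beside 13.6% of all genes, with a log2 fold change of -0.39 (SE 0.12, adjusted p = 0.0316, edgeR).

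The list of cytosolic elongation also held the initiation factor eIF2alpha, and 6 of its genes were tested, 5 of them elongation factors. Of these eEF1delta, a subunit of the exchange factor of eEF1alpha, was called lower in active CT1 against vehicle OA (log2 fold change -0.26, adjusted p = 0.00941) and against inactive CT1 (-0.19, adjusted p = 0.0475, edgeR). These 2 comparisons called 12.1% and 12.7% of all genes. None of the 8 genes of mitochondrial translation was called in any comparison.

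The list of the amino acid and ATF4 response held 11 genes, of which AsnS had no row in the counts and CG6287 was not tested. Of the 9 tested genes, 2 were called higher in active CT1 against vehicle OA, beside 12.1% of all genes called in either direction. Thor, the translational repressor 4E-BP, had 36.6, 45.1 and 54.0 CPM in active CT1, against 9.33 and 7.41 CPM in the 2 vehicle OA libraries tested and 6.26 CPM in the library left out. The groups were far apart, and the log2 fold change was 2.45 (SE 0.19, adjusted p = 1.18e-13, edgeR). aay, the phosphoserine phosphatase of serine synthesis, had a log2 fold change of 0.63 (SE 0.14, adjusted p = 0.000854, edgeR). crc itself had -0.03 (interval -0.16 to 0.10), and Gcn2 and PEK, another kinase that acts through ATF4, were not called there. The remaining tested genes of the list were not called there either. In the main test of the same comparison none of the synthetases was called higher, and their highest value was 0.27 (PheRS-m). With all mapped libraries AlaRS was called higher (0.21, adjusted p = 0.0216, edgeR). The part of ATF4 in any of these values was not tested.

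Against inactive CT1, Thor (2.42, SE 0.16, adjusted p = 1.39e-15) and aay (0.51, SE 0.12, adjusted p = 0.00198) were called higher in active CT1 too (edgeR), beside 12.7% of all genes. Between active derivatives Thor was called again, with 2.51 over active CT2 (9.89% of all genes called) and 2.11 over active CT3 (4.64%). Other genes of the list differed between them by less. trbl, a pseudokinase, and PPP1R15, a phosphatase subunit that reverses the mark set by Gcn2 and PEK, were called higher in active CT1 than in active CT2 (0.27 and 0.30, adjusted p = 0.0219 and 0.0412). PEK was called higher (0.24, adjusted p = 0.031) and CG11899, listed as the phosphoserine aminotransferase, lower (-0.56, adjusted p = 0.0357) in active CT1 than in active CT3 (edgeR).

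aay was also called higher in active CT3 against vehicle OA, beside 4.87% of all genes, with 0.60 (SE 0.14, adjusted p = 0.00646, edgeR). No synthetase was called there in the main test. Against inactive CT3 aay was called higher with 0.61 (SE 0.13, adjusted p = 0.00145, edgeR), beside 3.68% of all genes. Thor was called lower in OA than in noOA, by -0.58 (SE 0.11, adjusted p = 0.000412), and in vehicle OA than in vehicle noOA, by -0.79 (SE 0.25, adjusted p = 0.0479, edgeR). The shares of all genes called in these comparisons were 13.6% and 6.45%. crc was called lower in OA than in noOA, with a log2 fold change of -0.17 (SE 0.04, adjusted p = 0.00898, edgeR).

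**Figure D5:**
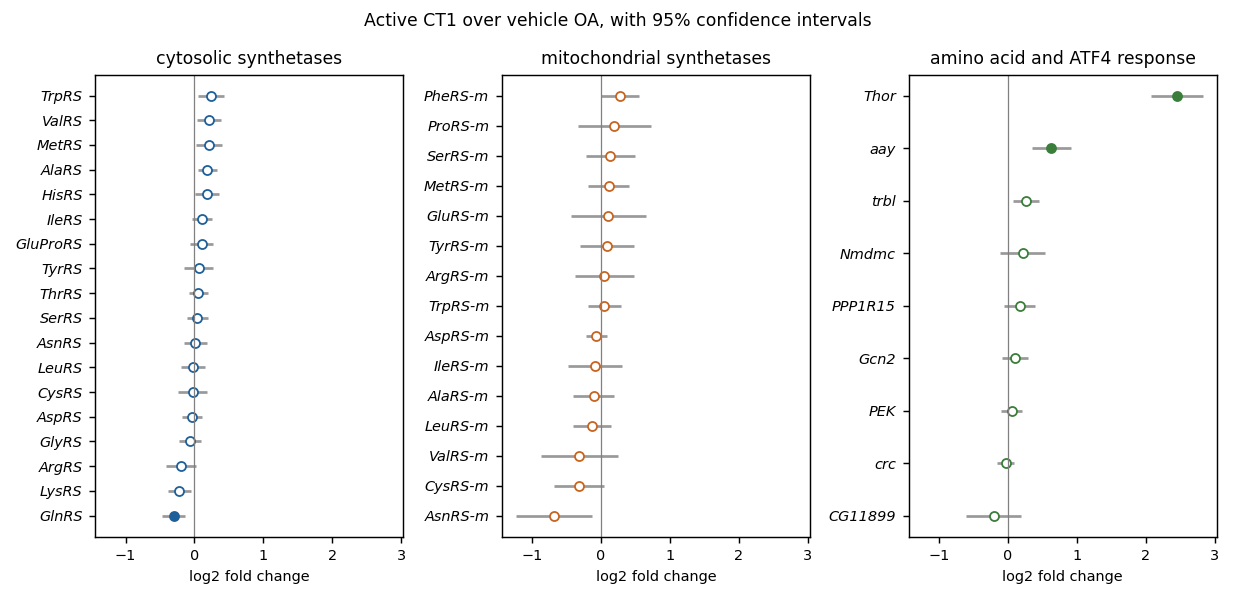
Log2 fold change of active CT1 over vehicle OA with 95% confidence intervals (edgeR) for the cytosolic synthetases, the mitochondrial synthetases and 9 genes of the amino acid and ATF4 response. Filled points are called at an adjusted p under 0.05. Thor stands at 2.45, while the synthetases lie between -0.68 (AsnRS-m) and 0.27 (PheRS-m).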

How the data were processed

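RNA-Seq was read in 36 libraries of S3 cells. The authors aligned stranded single-end reads with TopHat2 2.0.10 to BDGP Release 5 and deposited raw counts per gene (HTSeq 0.5.4p1, counted by strand, each library by itself). The authors also deposited FPKM (Cufflinks 2.1.1), which scale reads by transcript length and depth. Groups came from the sample labels, and 0 columns lacked a sample.

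Counts were tested in R 4.3.3 with edgeR 4.0.16 (quasi-likelihood test, TMM factors, filterByExpr, Benjamini-Hochberg adjustment over all genes of a comparison, called at an adjusted p under 0.05). The DMSO groups formed a fit of 22 libraries (7522 genes). A fit of 16 libraries held the groups without DMSO and both vehicle groups (7546 genes). The study removed replicates that correlated poorly. Its replicate table matched vehicle noOA replicates 2 and 3 and vehicle OA replicates 1 and 2, so 2 libraries were left out. Levels in CPM used TMM factors over all 36 libraries. The test was checked on simulated counts. Depth limits the genes with few reads most, as their wide intervals show.

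Alternatives were RLE factors, DESeq2 1.42.0, no filter on low counts, rRNA left out, all mapped libraries, other sets of groups in the fit, a replicate block, limma 3.58.1 on log2(FPKM + 1) or log2(FPKM + 0.1) with and without a filter (some group averaging 1 FPKM or more), and leaving out each library. Adjusting over the 16 comparisons together, and running the alternatives on the 4 interactions, were chosen after seeing the data. The genes and lists were chosen with earlier results of these data known. Values per library are given for up to 4 called genes per comparison with the smallest p and for genes called in an interaction, and FPKM ranges for the 2 highest and 2 lowest genes of each compartment. Of the related lists, called genes are named. Exon lengths and overlaps came from the BDGP6 annotation, a later build than that of the reads, and were used for lengths and neighbours only.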

Additional observations from a re-analysis of the deposited data

Results flagged for a closer look

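Among 66 sets of 6 libraries (33 synthetase genes in OA and in noOA), 3 had a single library far from the other 5, where chance sets about 1 in 20 apart. TyrRS-m had 18.01 CPM in OA replicate 3, against 12.3 to 13.8 CPM in the other OA libraries. LysRS had 94.3 CPM in noOA replicate 1, against 76.3 to 82.5 CPM in the other noOA libraries. PheRS-m had 20.1 CPM in noOA replicate 4, against 13.5 to 15.9 CPM in the others. OA replicate 3 (2554627 counts) and noOA replicate 1 (1766556 counts) were the libraries with the fewest counts in their groups. noOA replicate 4 had the most counts of noOA (9164090). None of the 3 genes was called in OA against noOA.

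HisRS responded differently to the active derivative, relative to its inactive partner, in CT1 than in CT2 (difference 0.43 on the log2 scale) and in CT1 than in CT3 (0.44). Both differences passed the interaction test (edgeR) in the main fit, and both rest on the same 6 CT1 libraries. The call was lost in 5 of 23 alternatives for CT1 against CT2 and in 11 of 23 for CT1 against CT3.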

How the results depend on the processing

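No value changed sign among the called genes. Switching to limma on FPKM changed most. It called 0 synthetase genes, with each pseudocount and without the filter, in OA against noOA, active CT1 against vehicle OA, active CT2 and active CT3, and both HisRS interactions. The medians of the cytosolic genes moved there, with pseudocounts of 1 (the same without the filter) and 0.1, to 0.19 and 0.20 (OA against noOA), 0.16 and 0.17 (vehicle noOA against noOA), -0.13 and -0.14 (vehicle OA against OA), 0.19 and 0.19 (active CT1 against vehicle OA), 0.19 and 0.19 (against inactive CT1), 0.12 and 0.13 (against active CT2), 0.23 and 0.24 (against active CT3), 0.11 and 0.11 (active against inactive CT2), -0.0796 and -0.0814 (active against inactive CT3), -0.13 and -0.13 (active CT3 against active CT2), -0.0773 and -0.0788 (inactive CT1 against vehicle OA) and -0.10 and -0.10 (inactive CT2 against vehicle OA). Those of the mitochondrial genes moved to 0.21 and 0.23 (OA against noOA), -0.0753 and -0.0771 (vehicle OA against OA), 0.11 and 0.14 (active CT1 against vehicle OA), 0.0816 and 0.0925 (active CT1 against active CT3), -0.0823 and -0.0929 (inactive CT2 against vehicle OA) and, with 0.1, 0.12 (active against inactive CT1). In the limma fits the median of all genes lay between -0.11 and 0.17, beside -0.01 to 0.01 in the main edgeR fits. The cause was not tested. DESeq2 called 2 genes in active CT1 against active CT2 and 0 in the interaction of CT1 against CT3, where a fit over 34 libraries also called 0. Adjusting over the 16 comparisons left 1 call in OA against noOA. With all mapped libraries there were 4 calls in active CT1 against vehicle OA and 1 in active CT3 against vehicle OA (LeuRS), where RLE factors gave 1 (AspRS) and a fit of these groups alone 2 (AspRS and GlnRS). Replicate numbers did not pair the samples, since correlations of same-numbered deviations ran from -0.14 to 0.10 and 10 of 22 and 1 of 16 libraries correlated best with their own number. The replicate block gave 1 call in active CT3 against vehicle OA (AspRS, log2 fold change -0.23, adjusted p = 0.0494) and added IleRS-m in OA against noOA (0.41, adjusted p = 0.0431, edgeR), and changed no other count of calls. Leaving out 1 library gave 0 to 2 calls in active CT1 against vehicle OA, 1 to 4 against active CT2, 1 to 2 against active CT3, and 0 to 2 and 0 to 1 in the interactions of CT1 with CT2 and CT3. It moved cytosolic medians to between -0.0352 and 0.0402 (active CT2), -0.0897 and -0.0630 (active CT3), -0.0568 and 0.0210 (inactive CT2) and -0.0675 and -0.0232 (inactive CT3, each against vehicle OA). It moved mitochondrial medians to between -0.0329 and 0.0403 (vehicle OA against vehicle noOA), -0.0770 and 0.0465 (active CT1), -0.0820 and 0.0588 (active CT3, both against vehicle OA) and 0.0139 and 0.144 (vehicle noOA against noOA). The other counts of calls stayed within 1.5 times their main value, and the other medians moved by less than the spread between replicates, under the alternatives run.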
